A study of Mus musculus with 3 samples.

Results

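The genes described here are 9 genes that T cells switch on during activation and chronic stimulation: Pdcd1, Lag3, Tigit, Havcr2, Ctla4, Tox, Gzmk, Nr4a2 and Icos. They are 9 of the 23860 genes that appear in either table of single-cell counts, and they were chosen because earlier results from these tables showed them high in a group of CD8 T cells. Their levels across cell types are therefore given as a description, without a test. All 9 were measured in both libraries, in 3455 T and NK cells of one and 3120 of the other.

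The study examined Chi3l1 and Kupffer cells (KCs) in diet-induced fatty liver, and liver cells of C57BL/6J mice were captured with BD Rhapsody, a bead-based single-cell system. One library is used here as the WT library. Its GEO title reads MCD, a methionine-choline deficient diet, whereas the study describes WT mice on normal chow. The file header of the library names the run APAP0h, so its diet is not settled by the sources used here. The filter of the study's methods left a number of cells in this library close to the one the study gives for normal chow. The other, the HFHC pool, holds WT and Chil1-/- (Chi3l1-/-) mice fed a high-fat, high-cholesterol diet for 16 weeks, captured together. In this pool the same filter left more cells than the study gives for its WT and Chi3l1-/- mice on that diet together. The genotype of a single cell in it is not known here, because the library of sample tags was not analysed here. The number of mice in each library is not given in the sources used here. Each diet has 1 library, so there is no replicate check and no p-value. The diet cannot be told apart from the capture, the library or the Chil1-/- genotype of part of the HFHC pool. Intervals are exact 95% intervals that cover counting error of unique molecules (UMIs) only.

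Pdcd1 encodes PD-1, Lag3 a receptor for MHC class II, Tigit a receptor for Pvr and Nectin2, Havcr2 the receptor TIM-3, and Ctla4 a receptor for Cd80 and Cd86; all 5 dampen T cell activation. Tox is a nuclear factor required for the exhausted state of CD8 T cells under persistent antigen, Nr4a2 is an orphan nuclear receptor induced by T cell receptor signalling, and Gzmk is a granule protease of memory and exhausted-like CD8 cells. Icos is a costimulatory receptor of activated and regulatory T cells. Regulatory T cells carry Ctla4, Tigit and Icos as part of their normal programme, and NK cells can carry Lag3, Tigit and Havcr2, so that a single one of these genes does not mark exhaustion.

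On the mouse build GRCm38 (GENCODE), all 9 are protein-coding genes and the counts are summed over each gene. Pdcd1 lies at chr1:94038305-94052553 on the minus strand. Ctla4 at chr1:60887000-60915832 and Icos at chr1:60977927-61000320 lie on the plus strand of the same chromosome, 62.1 kb apart. Lag3 lies at chr6:124904361-124911705, Tigit at chr16:43648867-43664146, Tox at chr4:6686353-6991557, Gzmk at chr13:113171608-113225908 and Nr4a2 at chr2:57106830-57124003, all on the minus strand. Havcr2 lies at chr11:46454935-46481255 on the plus strand.

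RefSeq start sites (GRCm38.p6) were matched for 6 of the 9 genes, all but Lag3, Tox and Icos. The 250 bases before the start are shown for 4 of these 6 genes, written 5′ to 3′ on the strand of the gene. Capitals mark matches on either strand to the core GGAAA bound by NFAT, the AP-1 element TGANTCA, or the CRE half-site TGACG; none of these matches overlap each other in the 4 windows.
Pdcd1, chr1:94052554-94052803, minus strand: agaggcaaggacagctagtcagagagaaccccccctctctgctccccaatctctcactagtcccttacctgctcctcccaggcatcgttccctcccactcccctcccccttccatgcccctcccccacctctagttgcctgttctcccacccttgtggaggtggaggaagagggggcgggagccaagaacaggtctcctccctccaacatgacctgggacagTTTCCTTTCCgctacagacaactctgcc
Tigit, chr16:43664185-43664434, minus strand: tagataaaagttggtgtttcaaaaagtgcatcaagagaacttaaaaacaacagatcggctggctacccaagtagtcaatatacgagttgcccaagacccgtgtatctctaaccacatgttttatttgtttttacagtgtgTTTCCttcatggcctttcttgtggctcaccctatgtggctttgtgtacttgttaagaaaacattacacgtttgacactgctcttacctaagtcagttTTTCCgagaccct
Havcr2, chr11:46454681-46454930, plus strand: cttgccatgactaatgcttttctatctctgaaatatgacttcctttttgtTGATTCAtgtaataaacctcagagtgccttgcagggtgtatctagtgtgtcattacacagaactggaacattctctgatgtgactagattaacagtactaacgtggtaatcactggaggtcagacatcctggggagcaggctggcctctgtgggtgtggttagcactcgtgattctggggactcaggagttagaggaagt
Nr4a2, chr2:57124004-57124253, minus strand: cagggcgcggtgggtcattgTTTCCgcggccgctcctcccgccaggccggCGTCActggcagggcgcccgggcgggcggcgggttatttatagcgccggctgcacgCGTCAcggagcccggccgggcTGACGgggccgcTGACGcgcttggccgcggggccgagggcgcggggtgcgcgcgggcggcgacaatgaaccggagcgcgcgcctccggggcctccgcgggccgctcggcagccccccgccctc
The Pdcd1 and Tigit windows hold 2 NFAT cores each, Havcr2 holds 1 AP-1 element, and Nr4a2 holds 1 NFAT core and 4 CRE half-sites. Of the other windows, Ctla4 holds 1 NFAT core and Gzmk none of the 3 motifs. Among 32851 windows of this length, 55.6% hold an NFAT core, 6.75% an AP-1 element and 17.8% a CRE half-site. The matches are descriptions of the letters and not binding sites.

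Cells were clustered without the 9 genes, so that none of them could form a cluster. The CD8-like cells comprised 311 cells of the WT library and 899 of the HFHC pool, with Cd8a and Cd8b1 each between 685 and 2304 CPM (UMIs of a gene per 1000000 UMIs, summed over the cells) in their 3 clusters. The other classes in the WT library and the HFHC pool held 285 and 420 CD4-like cells, 26 and 214 Regulatory-like cells (Foxp3 at 1687 CPM), 164 and 128 Gamma delta-like cells, 1501 and 425 NKT-like cells, and 443 and 457 NK-like cells. Another 413 and 344 cells sat in clusters with hepatocyte, myeloid or endothelial genes and 312 and 233 in clusters without a clear class, and both were kept out of the classes. The cells of the HFHC pool were deeper, with a median of 3438 UMIs per T or NK cell against 1781, and shares of cells with a UMI are therefore given after every cell was thinned to 1000 UMIs. This left out 436 and 8 shallower T and NK cells. The libraries share 756 cell indices of 884736 possible.

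The 2 libraries drew their CD8-like cells from different clusters. In the WT library 277 of 311 cells belonged to a naive-like cluster led by Dapl1 and Fam241a, 28 to a cluster led by Cx3cr1, the fractalkine receptor of effector cells, and 6 to a cluster led by Adgrg1, 2310031A07Rik and Coch. In the HFHC pool the same clusters held 392, 241 and 266 cells. The Adgrg1 cluster was thus made up of HFHC pool cells for 97.8% of its 272 cells, and with so few WT library cells it cannot be told apart from a feature of that library.

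**Figure D1:**
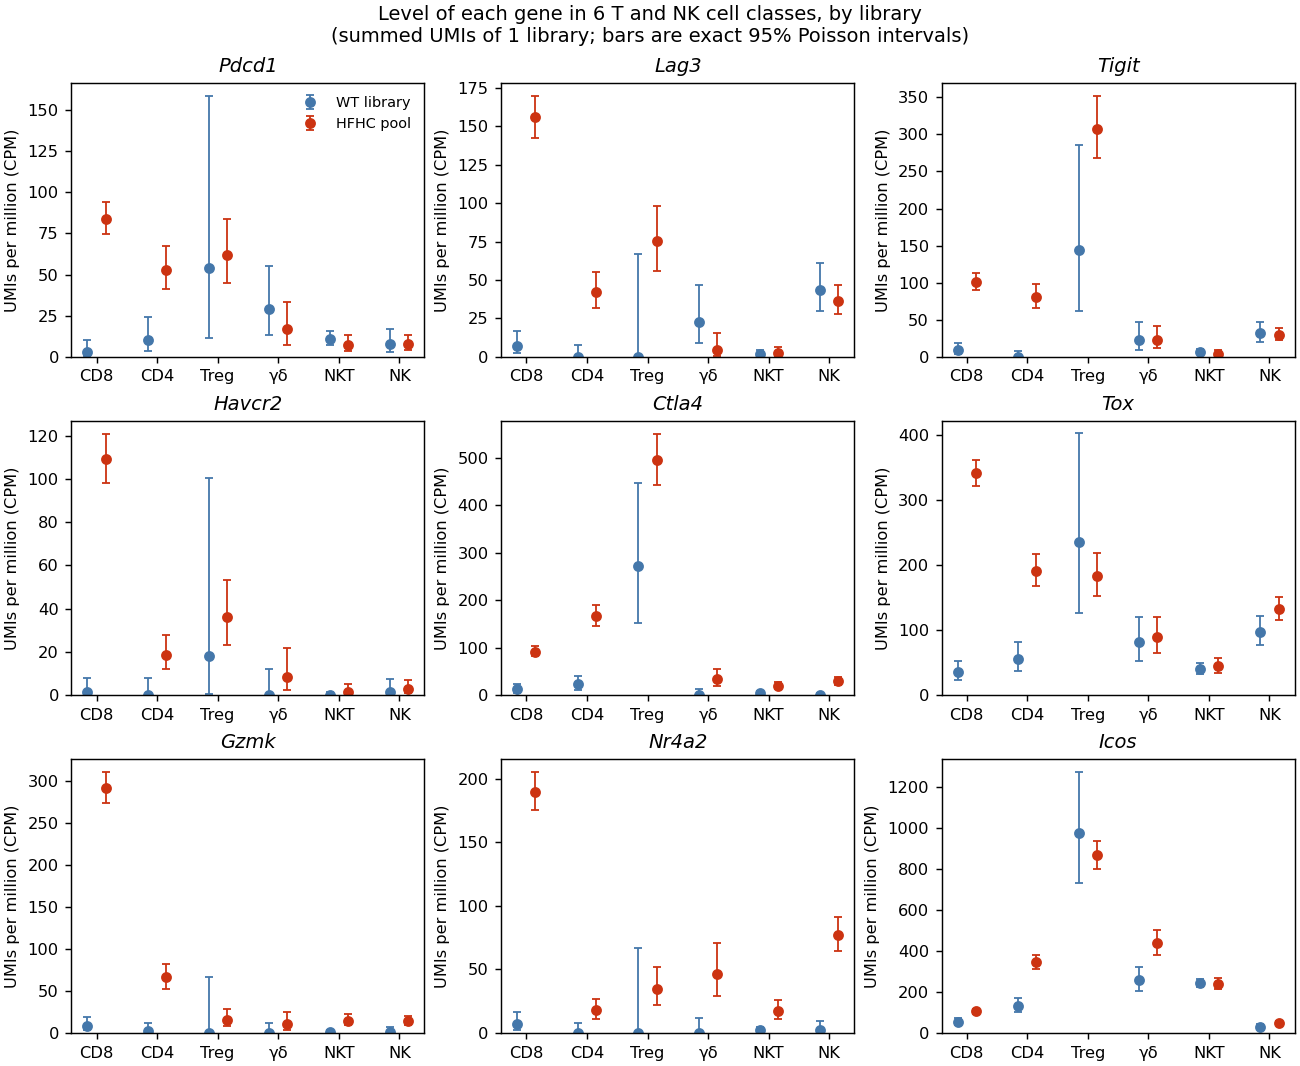
Level of each of the 9 genes (CPM, linear axis from 0, with its own scale in each panel) in the 6 classes of T and NK cells, with 1 point per library and exact 95% Poisson bars; Treg stands for Regulatory-like and γδ for Gamma delta-like. In CD8-like cells Havcr2 sat at 1.43 CPM in the WT library and 109 CPM in the HFHC pool, whereas Icos in NKT-like cells sat at 243 and 241 CPM.

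Among the inhibitory receptors, Pdcd1 was measured in CD8-like cells at 2.86 CPM (0.347 to 10.3; 2 UMIs) in the WT library and 83.9 CPM (74.4 to 94.3; 283 UMIs) in the HFHC pool. Lag3 was at 7.16 CPM (2.32 to 16.7) and 156 CPM (143 to 170). Tigit was at 8.59 CPM (3.15 to 18.7) and 101 CPM (90.7 to 112). For each of these 3 genes the intervals of the libraries lay far apart. Havcr2 rested on 1 UMI in the WT library, 1.43 CPM (0.0363 to 7.98), against 368 UMIs and 109 CPM (98.3 to 121) in the HFHC pool. Ctla4 was at 11.5 CPM (4.95 to 22.6) and 91.4 CPM (81.4 to 102). All 5 receptors were thus higher in the CD8-like cells of the HFHC pool.

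Tox, the exhaustion-linked nuclear factor, was at 35.8 CPM (23.2 to 52.8) in CD8-like cells of the WT library and 341 CPM (321 to 361) in those of the HFHC pool. Nr4a2 was at 7.16 CPM (2.32 to 16.7) and 190 CPM (175 to 205), and the protease Gzmk at 8.59 CPM (3.15 to 18.7) and 292 CPM (274 to 310). These 3 genes were higher in the HFHC pool like the receptors. Icos differed least of the 9, at 54.4 CPM (38.5 to 74.7) and 105 CPM (94.3 to 117).

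Expressed as a log2 ratio, with the HFHC pool as numerator and 1 UMI added to each sum, the CD8-like cells gave 4.29 (3.01 to 7.93) for Pdcd1, 4.18 (3.21 to 6.07) for Lag3 and 3.34 (2.42 to 5.01) for Tigit. Havcr2 gave 5.26 (3.77 to 11.56) and Ctla4 2.83 (2.0 to 4.22). Tox gave 3.19 (2.68 to 3.88), Gzmk 4.86 (3.96 to 6.53), Nr4a2 4.47 (3.50 to 6.36) and Icos 0.91 (0.46 to 1.47). In all, 8 of the 9 genes were higher by at least 2-fold and 0 lower. Of the 5533 genes with at least 100 UMIs in these cells, 8.11% were higher and 2.15% lower by that much. Since the genes were chosen for this pattern, nothing is read from that count. With a mitochondrial limit of 10% in place of 25%, Lag3 gave 5.36 and Tox 4.04, and with classes set from each cell's own marker UMIs, Pdcd1 gave 3.30 and Nr4a2 6.19. Their median log2 ratio was 4.18, and that of all genes 0.10.

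**Figure D2:**
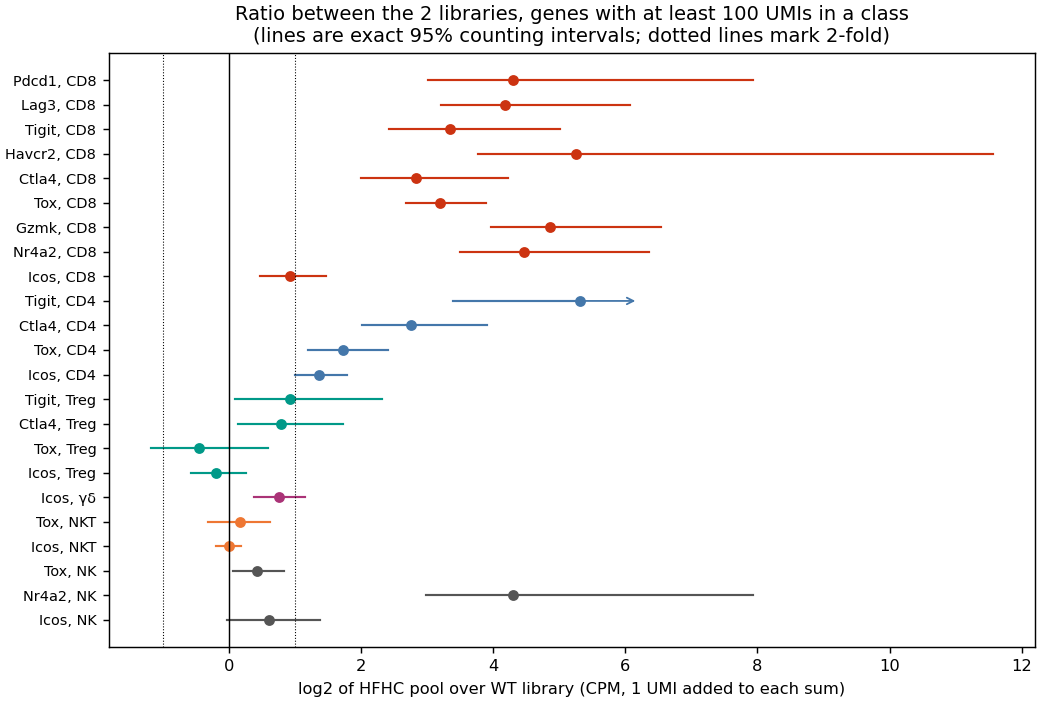
log2 ratio, HFHC pool to WT library, for each gene and class in which 100 UMIs or more were counted over the libraries, with exact 95% counting intervals; dotted lines mark 2-fold, and the arrow marks an interval with no upper end, where the WT library held 0 UMIs. The points of CD8-like cells run from 0.91 for Icos to 5.26 for Havcr2, and those of Regulatory-like cells stay between -0.45 and 0.92.

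The Adgrg1 cluster held a larger share of the UMIs than of the cells for 8 of the 9 genes, Icos being the exception. Since the genes were chosen for being high in a group of CD8 T cells, nothing is read from that count. Its 266 HFHC pool cells were 8.53% of the T and NK cells of that library, and held 74.9% of its Havcr2 UMIs, 60.8% of its Lag3 UMIs and 48.0% of its Pdcd1 UMIs. They also held 55.8% of the Gzmk, 49.1% of the Nr4a2, 37.8% of the Tox and 34.8% of the Tigit UMIs. The portion was smallest for Ctla4, at 20.2%, and Icos, at 7.78%. Without this cluster the CD8-like log2 ratios were 1.90 for Tox, 3.47 for Gzmk, 2.85 for Nr4a2 and 0.27 for Icos, and the 5 receptors fell under 100 UMIs and had no ratio.

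Within the HFHC pool the CD8-like clusters formed a series. In the naive-like cluster Pdcd1 was at 0.595 CPM (0.0151 to 3.32), in the Cx3cr1 cluster at 57.0 CPM (41.4 to 76.6) and in the Adgrg1 cluster at 259 CPM (227 to 294). Lag3 went from 3.57 through 58.3 to 515 CPM, and Havcr2 from 0.595 through 29.8 to 374 CPM. Tox went from 70.3 through 277 to 887 CPM, and Gzmk from 8.33 through 338 to 769 CPM. Each of these genes was lowest in the naive-like and highest in the Adgrg1 cluster, with intervals that did not overlap. Since the genes were chosen for being high in a group of CD8 T cells, such an order can follow from that choice. Nothing is read from it. Nr4a2 did not follow the series: it was at 65.5 CPM (53.8 to 78.9) in the naive-like, 55.7 CPM (40.3 to 75.1) in the Cx3cr1 and 529 CPM (483 to 578) in the Adgrg1 cluster, and the first 2 intervals overlap.

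The naive-like cluster had enough cells in both libraries for a comparison within it, though its cells were not alike. In it, 3 of 5 measured effector genes and 13 of 15 immediate-early and heat shock genes were at least 2-fold higher in the HFHC pool. At a resolution of 1.2, the naive-like CD8 cluster, led by Dapl1, held 177 WT library and 142 HFHC pool cells. A CD8-like cluster led by Nsg2 and Gzmm, not called naive-like, held 100 and 255. The part of this makeup in the differences given below was not tested. Without integration, cells of the libraries did not share a naive-like cluster, with 541 WT library and 5 HFHC pool cells in one and 2 and 248 in another. In the integrated cluster Pdcd1 had 0 UMIs in the WT library and 1 in the HFHC pool, and Lag3 was at 8.02 CPM (2.60 to 18.7) and 3.57 CPM (1.31 to 7.78). The inhibitory receptors thus did not separate the libraries in this cluster at this depth. Nr4a2 did, with 8.02 CPM (2.60 to 18.7) against 65.5 CPM (53.8 to 78.9), a log2 ratio of 2.78 (1.76 to 4.68). Of the 3 genes with enough UMIs here it was the 1 past 2-fold, in a cluster where 4.28% of 3503 genes were higher by that much. The minimum sums both libraries, and Nr4a2 reached it with 110 UMIs in the HFHC pool against 5, so nothing is read from that count. Tox was at 35.3 and 70.3 CPM, a log2 ratio of 0.94 (0.33 to 1.72), and Icos at 54.5 and 57.2 CPM, a log2 ratio of 0.04 (-0.51 to 0.68).

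Nr4a2 belongs to a group of genes induced within minutes of stimulation, including by tissue digestion. Of 20 such genes on a list of immediate-early and heat shock genes, 17 had enough UMIs in CD8-like cells and 14 were at least 2-fold higher in the HFHC pool, against 8.11% of all genes. In Regulatory-like cells, where 7.89% of all genes were higher and 5.07% lower, 6 of 12 were higher and 1 was lower, Klf2, a factor of resting T cells, at a log2 ratio of -2.63. The summed level of these 20 genes, among them Fos, Jun and Hspa1a but none of the 9, was 3165 CPM in CD8-like cells of the WT library and 8279 CPM in those of the HFHC pool. It was higher in the HFHC pool in every class, from 2623 to 7084 CPM in NKT-like cells and from 3208 to 8743 CPM in NK-like cells. In the HFHC pool it was lower in the Adgrg1 cluster, at 5883 CPM, than in the naive-like cluster, at 10223 CPM, whereas Nr4a2 was 529 and 65.5 CPM in these clusters. The part of this group in the Nr4a2 difference was not tested. Some genes of the list reached the minimum mainly through the HFHC pool, as Fosb did in CD8-like cells with 544 UMIs against 4. Nothing is read from the counts of this list.

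In CD4-like cells, 4 of the 9 genes had at least 100 UMIs, and all 4 were higher in the HFHC pool by at least 2-fold, as were 8.03% of the 3065 genes in these cells, with 1.99% lower. Each of the 4 had more than 100 UMIs in the HFHC pool alone, so nothing is read from that count. Tigit had 0 UMIs in 285 cells of the WT library and was at 81.0 CPM (66.2 to 98.1) in the HFHC pool. With a floor of 3 UMIs in place of the 0, the HFHC pool was 13.1-fold higher, a value that leaves out counting error. Ctla4 was at 22.8 CPM (11.4 to 40.7) and 167 CPM (145 to 191), Tox at 55.8 CPM (36.8 to 81.3) and 191 CPM (168 to 216), and Icos at 132 CPM (102 to 169) and 345 CPM (314 to 379). The log2 ratio of Icos, 1.36, was 0.61 with classes set from each cell's own marker UMIs and then did not pass 2-fold. The makeup of this class moved too. In the WT library 233 of the 285 cells were in a naive-like cluster led by St8sia6, and in the HFHC pool 294 of the 420 were in a cluster led by Tiam1 and Tnfsf8.

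Within the Tiam1 cluster, 52 cells of the WT library stood against 294 of the HFHC pool. Icos was at 332 CPM (227 to 469) and 456 CPM (412 to 502), with overlapping intervals and a log2 ratio of 0.42 (-0.06 to 1.02). Ctla4 was at 62.2 CPM (22.8 to 135) and 227 CPM (197 to 261), and Tigit had 0 UMIs in the WT library and was at 115 CPM (94.1 to 140) in the HFHC pool. Tox rested on 2 UMIs in the WT library, with a log2 ratio of 2.86 (1.57 to 6.49). Of the 4 genes with enough UMIs, 3 passed 2-fold in this cluster, where 7.03% of 1835 genes were higher by that much. The minimum sums both libraries, and these 3 reached it through the HFHC pool. Tigit had 0 UMIs in the WT library and 103 in the HFHC pool, Tox 2 and 201, and Ctla4 6 and 203. Nothing is read from that count. Pdcd1 at 75.0 CPM, Gzmk at 95.1 CPM and Lag3 at 60.4 CPM in the HFHC pool were each below the Adgrg1 cluster of CD8-like cells.

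Regulatory-like cells held the highest level of Icos, Ctla4 and Tigit among the 6 classes in both libraries. Icos was at 977 CPM (734 to 1274) in the WT library and 867 CPM (799 to 940) in the HFHC pool. Ctla4 was at 271 CPM (152 to 447) and 495 CPM (444 to 550), and Tigit at 145 CPM (62.5 to 285) and 307 CPM (268 to 352). Each of these levels stood apart from the next class of its library by intervals that did not overlap. Between the libraries, 0 of the 4 genes with enough UMIs passed 2-fold, where 7.89% of 1419 genes were higher and 5.07% lower by that much. The log2 ratios were 0.92 (0.08 to 2.32) for Tigit, 0.78 (0.13 to 1.72) for Ctla4, -0.45 (-1.18 to 0.59) for Tox and -0.20 (-0.57 to 0.26) for Icos. The WT library gave 26 such cells, which sets these wide intervals. With classes set from each cell's own marker UMIs, Tigit passed 2-fold and the log2 ratio of Tox changed sign. Pdcd1, on 3 UMIs in the WT library, was at 54.3 CPM (11.2 to 159) against 62.1 CPM (44.9 to 83.6).

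In Gamma delta-like cells Icos was the 1 gene with enough UMIs for a ratio, and it divided their clusters. A cluster led by Blk, a Src-family kinase, and Cd163l1, a scavenger receptor, held Icos at 710 CPM (553 to 899) in the WT library and 693 CPM (598 to 798) in the HFHC pool. A cluster led by Trdc, Klra5 and Gzmb held it at 52.2 CPM (26.1 to 93.4) and 77.3 CPM (43.3 to 128). The clusters thus differed in the same direction in both libraries, and within each cluster the intervals of the libraries overlapped. For the class as a whole the log2 ratio of Icos was 0.75 (0.38 to 1.15), with the Blk cluster making up 46 of 164 cells in the WT library and 73 of 128 in the HFHC pool. It was -0.03 without integration of the libraries. It did not pass 2-fold, which 4.11% of 1436 genes did upwards and 4.25% downwards. In the Trdc cluster Tigit was at 33.2 CPM (13.4 to 68.5) in the WT library and 56.7 CPM (28.3 to 101) in the HFHC pool, Pdcd1 at 19 and 15.5 CPM, and Lag3 at 33.2 CPM (13.4 to 68.5) and 10.3 CPM (1.25 to 37.2), all with overlapping intervals. Havcr2 had 0 and 3 UMIs there. Over the class Nr4a2 had 0 UMIs in the WT library and was at 46.7 CPM (29.3 to 70.7) in the HFHC pool, and Ctla4 had 0 UMIs and was at 34.0 CPM (19.4 to 55.1).

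NKT-like cells, the largest class of the WT library, had Icos as the highest of the 9 genes. Icos was at 243 CPM (225 to 262) and 241 CPM (216 to 269), a log2 ratio of -0.01 (-0.21 to 0.18), the narrowest interval among the 9 genes. Tox was at 39.9 CPM (32.7 to 48.3) and 44.3 CPM (33.9 to 56.9), a log2 ratio of 0.16 (-0.33 to 0.62). Neither passed 2-fold, which 2.91% of 5596 genes did upwards and 2.63% downwards. Lag3 was at 1.88 and 2.18 CPM, Tigit at 6.40 and 4.36 CPM, and Havcr2 at 0 and 1.45 CPM. Another 3 genes, each with fewer than 100 UMIs, were higher in the HFHC pool with intervals that did not overlap. No share over all genes is given for this criterion, and nothing is read from the count. Nr4a2 was at 2.26 CPM (0.829 to 4.92) and 17.4 CPM (11.2 to 25.9), Gzmk at 1.51 CPM (0.410 to 3.86) and 14.5 CPM (8.88 to 22.4), and Ctla4 at 4.90 CPM (2.61 to 8.37) and 18.2 CPM (11.8 to 26.8). Pdcd1 was 10.9 CPM (7.31 to 15.7) and 7.27 CPM (3.48 to 13.4), with overlapping intervals. A cluster led by Egr3 and Egr2, which T cell receptor signals induce, held Pdcd1 at 25.9 CPM (15.4 to 41.0) and 40.5 CPM (13.2 to 94.6), and made up 374 of 1501 cells in the WT library and 40 of 425 in the HFHC pool. The cluster led by Mmp9 held it at 3.59 CPM (1.32 to 7.81) and 2.64 CPM (0.544 to 7.70), and the remaining cluster, which overlapped both, at 17.3 CPM (5.601 to 40.3) and 17.4 CPM (2.11 to 62.8). This remaining cluster, led by Malat1, had median mitochondrial shares of 16.9% and 16.1% and median depths of 889 and 1784 UMIs.

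In NK-like cells Lag3 was at 43.4 CPM (29.8 to 60.9) in the WT library and 36.4 CPM (27.9 to 46.5) in the HFHC pool, the highest class for this gene in the WT library. Tigit was at 31.5 CPM (20.2 to 46.9) and 30.01 CPM (22.4 to 39.4), and Tox at 97.2 CPM (76.3 to 122) and 132 CPM (115 to 150). For Lag3 and Tigit the intervals of the libraries overlapped, and the log2 ratio of Tox was 0.42 (0.05 to 0.84). Lag3 divided the class in both libraries: the cluster led by Gzmc, Klrb1b and Xcl1 held it at 69.6 and 64.3 CPM, and the cluster led by Klra4, Klra8 and S1pr5 at 0 and 4.90 CPM. Tox was likewise at 143 and 194 CPM in the first and 20.9 and 61.3 CPM in the second. Markers of ILC1, lymphoid cells related to NK cells, had a mean log2 score of 2.02 in the first and -0.36 in the second. Cxcr6 was at 633 and 24.5 CPM in these clusters over both libraries. ILC1 and NK cells were thus not told apart in this class. Nr4a2 went from 2 UMIs, 2.63 CPM (0.318 to 9.49), to 76.8 CPM (64.3 to 91.0), a log2 ratio of 4.29 (2.99 to 7.93). It was the 1 of 3 genes past 2-fold in NK-like cells, where 3.55% of 4340 genes were higher and 1.96% lower by that much. The minimum sums both libraries, and Nr4a2 reached it with 133 UMIs in the HFHC pool against 2, so nothing is read from that count. Ctla4 in the Gzmc cluster had 0 UMIs in the WT library and was at 52.3 CPM (38.6 to 69.4) in the HFHC pool, and Havcr2 stayed at 1.31 and 2.89 CPM over the class.

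Over all 54 pairs of a gene and a class, 23 had at least 100 UMIs, 13 of these were higher in the HFHC pool by at least 2-fold and 0 were lower. Over all genes the shares by class were 2.91 to 8.11% higher and 1.96 to 5.07% lower. The minimum sums both libraries, so a gene can pass it through the HFHC pool alone, as Havcr2 did in CD8-like cells with 368 UMIs against 1, and nothing is read from the count. Of the 13, 8 were in CD8-like cells, 4 in CD4-like cells and 1 in NK-like cells. The class with the highest level was the same in both libraries for 5 genes, namely Regulatory-like cells for Tigit, Ctla4 and Icos and CD8-like cells for Gzmk and Nr4a2. Pdcd1, Havcr2 and Tox had theirs in Regulatory-like cells in the WT library and in CD8-like cells in the HFHC pool, and Lag3 passed from NK-like to CD8-like cells. For Pdcd1, Lag3, Havcr2, Gzmk and Nr4a2 the top class of the WT library overlapped the next in its interval, so that their order there is not settled at this depth. In the HFHC pool the top class stood apart from the next for 8 of the 9 genes, and Pdcd1 in CD8-like cells, at 83.9 CPM, overlapped Regulatory-like cells, at 62.1 CPM. No share over all genes is given for this criterion. The genes were also chosen for being high in a group of CD8 T cells, so nothing is read from that count.

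**Figure D3:**
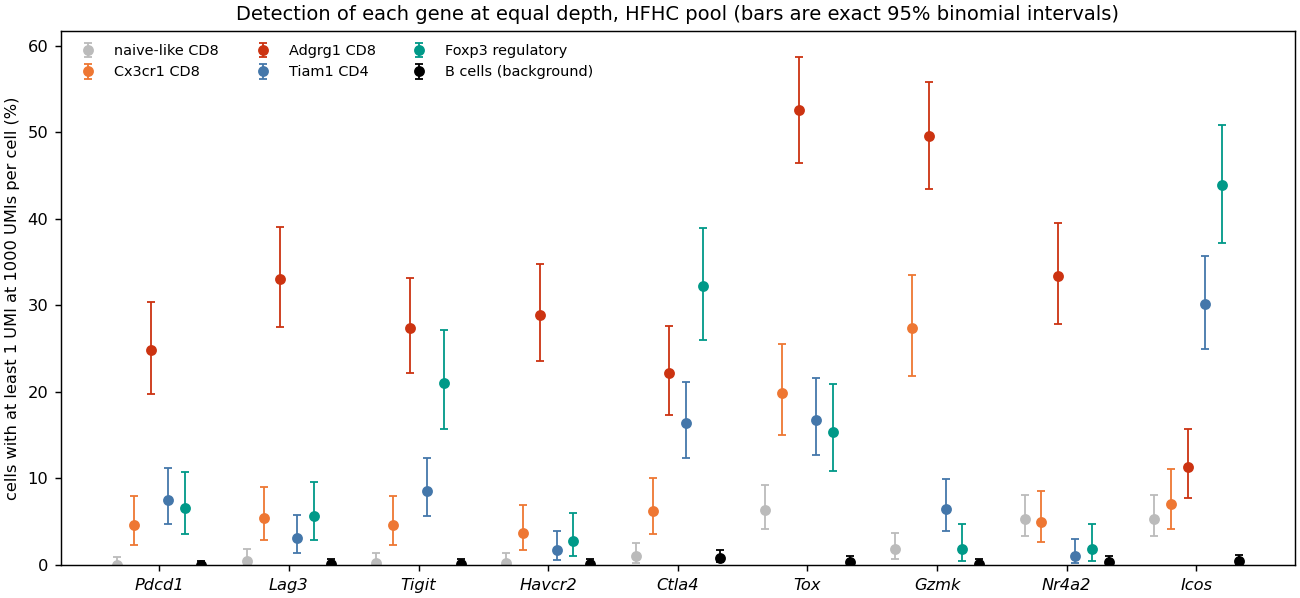
Share of cells (percent) with at least 1 UMI of each gene after every cell was thinned to 1000 UMIs, in 5 clusters of the HFHC pool, beside the B cells of the same library as background; bars are exact 95% binomial intervals. In the Adgrg1 cluster the share ran from 11.3% for Icos to 52.6% for Tox, and in B cells it stayed at or below 0.824%.

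At equal depth, 24.8% of the 266 cells of the Adgrg1 cluster in the HFHC pool had a Pdcd1 UMI, 33.1% a Lag3 UMI and 28.9% a Havcr2 UMI. For Tigit the share was 27.4%, for Ctla4 22.2%, for Nr4a2 33.5%, for Gzmk 49.6% and for Tox 52.6%. Without thinning the shares in this cluster were 51.1% for Pdcd1, 70.3% for Lag3, 56.4% for Havcr2, 58.6% for Tigit and 45.1% for Ctla4, and 56.4% for Nr4a2, 86.8% for Gzmk and 89.8% for Tox. Free RNA in the wells can put UMIs into cells that do not express a gene, and B cells, endothelial cells and hepatocytes of the same library gave the level of this background. Their shares for Pdcd1 were 0%, 0.153% and 0%, and over all 9 genes and both libraries they reached at most 1.84%, for Icos in endothelial cells. Median depths before thinning in the HFHC pool were 3313 UMIs in the Adgrg1 cluster, 2644 in B cells and 5738 in endothelial cells. In the naive-like CD8 cluster the HFHC pool shares were 0% for Pdcd1, 0.510% for Lag3, 0.255% for Tigit and 0.255% for Havcr2, which is within this background, and 0.255%, 1.53%, 1.28% and 0.255% without thinning. Ctla4 in NKT-like, Gamma delta-like and NK-like cells of the HFHC pool, at 2.36%, 1.56% and 1.97%, had intervals that overlapped that of B cells, at 0.824% (4.71%, 4.69%, 6.78% and 2.59% without thinning). In the Gzmc cluster of NK-like cells the share was 4.17% (1.92 to 7.76), above the interval of B cells (0.332 to 1.69).

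Markers of other liver cells were summed in each class. Summed hepatocyte markers ranged from 302 to 585 CPM across the 6 classes and both libraries, with 329 and 345 CPM in CD8-like cells, and KC markers from 117 to 250 CPM. Neutrophil markers were higher in the WT library in every class, at 143 against 16.6 CPM in CD8-like, 174 against 13.2 CPM in CD4-like and 198 against 12.7 CPM in NK-like cells, and endothelial markers were at 202 against 86.6 CPM in CD8-like cells. Their part in the differences between the libraries was not tested. B cell markers were between 200 and 527 CPM in the other classes and at 868 and 1303 CPM in Regulatory-like cells, and their part in the levels there was not tested. Within NKT-like cells, the cluster led by Malat1 had them at 183 CPM in the WT library and 2764 CPM in the HFHC pool. Between 0 and 2 cells per class and library were called doublets. Within the Adgrg1 cluster the B cell markers were at 75.0 CPM, below the 348 CPM of the naive-like cluster of the same library. Havcr2 is also a gene of myeloid cells, and KC markers in the HFHC pool were at 135 CPM in the Adgrg1 and 113 CPM in the naive-like cluster. Their part in the Havcr2 level was not tested.

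The inhibitory receptors were next counted in the same cell, a question the levels of single genes do not answer. In the WT library 7 of 298 CD8-like cells, thinned to 1000 UMIs, had a UMI of any of the 5 receptors, and 0 had 2 or more, which allows a share of up to 1.23%. In the HFHC pool 29.5% of 899 cells had at least 1 receptor, 13.1% (10.99 to 15.5) at least 2 and 4.23% (3.01 to 5.76) at least 3. If the receptors had been spread independently over these 899 cells, 7.51% would have had at least 2 and 0.749% at least 3. Since the genes were chosen for being high in 1 group of these cells, an excess over the whole class follows from that choice, and nothing is read from it.

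**Figure D4:**
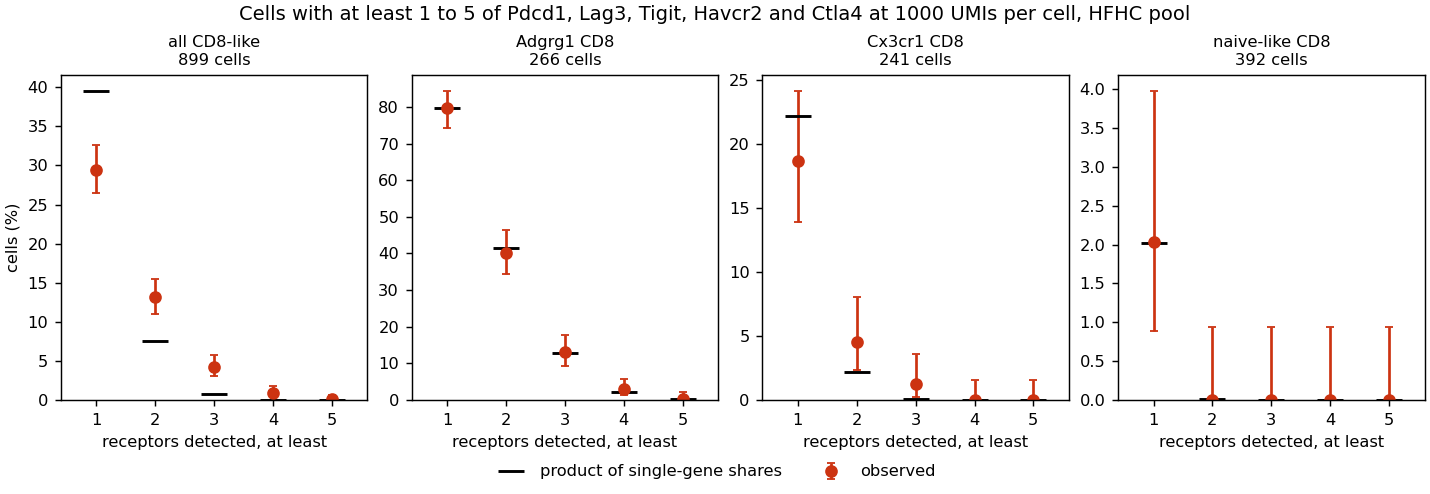
Share of cells (percent) with a UMI of at least 1 to 5 of the inhibitory receptors at 1000 UMIs per cell, in all CD8-like cells and their 3 clusters in the HFHC pool, with exact 95% binomial bars and, as black ticks, the shares expected from independent detection; the vertical scale differs between panels. In the Adgrg1 cluster 40.2% of cells had at least 2 receptors and 41.6% were expected, and in the naive-like cluster 0 of 392 cells had 2.

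Inside the Adgrg1 cluster the observed and expected shares lay close together. At least 1 receptor was found in 79.7% of its 266 cells, at least 2 in 40.2% (34.3 to 46.4) and at least 3 in 13.2% (9.34 to 17.8), and independent detection would give 79.8%, 41.6% and 12.8%. For the 10 pairs of receptors, cells with both genes were observed 205 times over all pairs against 197 expected. The median of observed over expected was 0.997 and the range 0.820 to 1.37, with 5 of the 10 above 1. Over all CD8-like cells the same median was 2.45, with a range of 2.12 to 3.89, and 222 observed against 82.0 expected. Of the 222 observations, 205 were in cells of the Adgrg1 cluster. This concentration can follow from the choice of genes high in a group of CD8 T cells, and nothing is read from it.

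Of the 10 pairs of receptors in the Adgrg1 cluster, Tigit and Havcr2 had the highest ratio, with 29 cells against 21.1 expected. Havcr2 was found in 39.7% (28.5 to 51.9) of cells with a Tigit UMI and in 24.9% (18.9 to 31.6) of those without, and these intervals overlap. The pair is named for being the highest of 10, and nothing is read from it. Pdcd1 and Lag3 were found together in 19 cells against 21.8 expected. For Tox and Gzmk, 68 cells of the cluster had both, with 69.5 expected, and 87 of all CD8-like cells, with 48.6 expected. Over all 36 pairs of the 9 genes the median ratio was 2.12 in CD8-like cells, with all 36 above 1, and 1.001 in the Adgrg1 cluster. The excess over the whole class can follow from the choice of genes, and nothing is read from it.

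**Figure D5:**
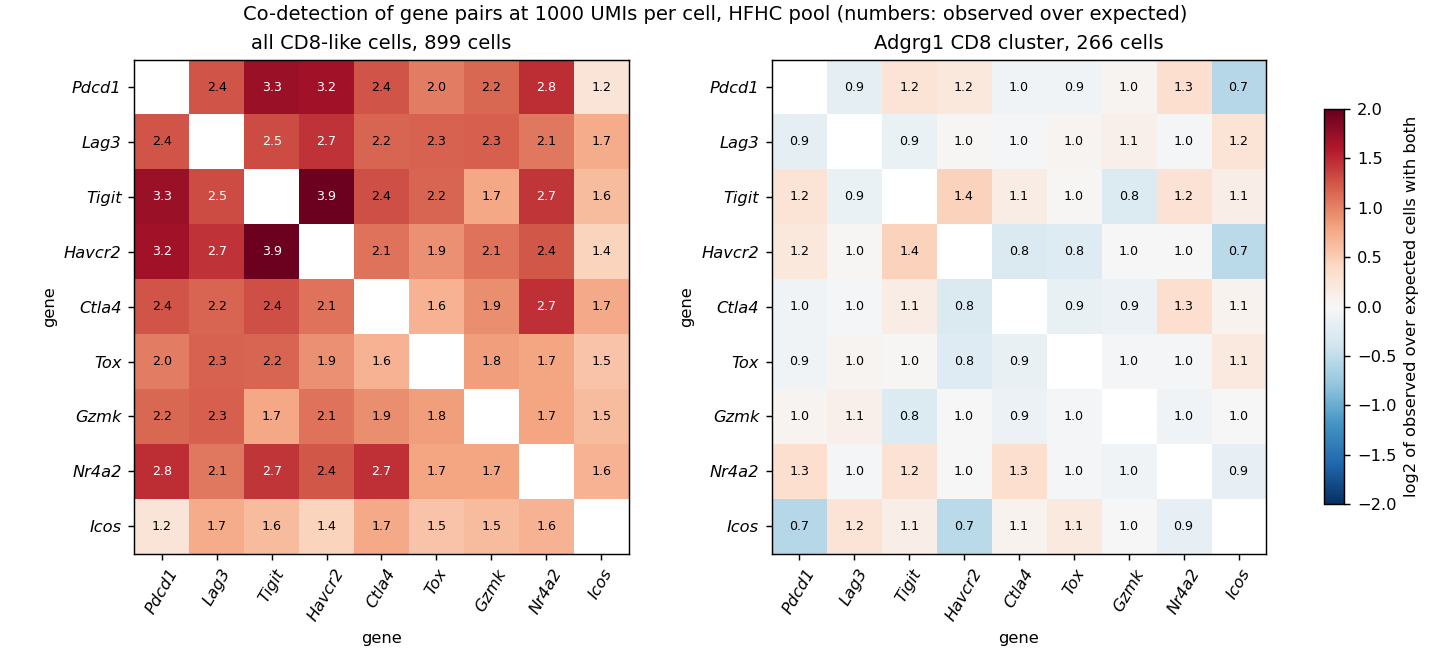
Cells with a UMI of both genes over the number expected from independent detection, for the 36 pairs of the 9 genes at 1000 UMIs per cell, in all CD8-like cells and in the Adgrg1 cluster of the HFHC pool. Ratios in all CD8-like cells run from 1.202 to 3.89, and those in the Adgrg1 cluster from 0.672 to 1.37.

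Joint detection was also counted outside the Adgrg1 cluster. In the Cx3cr1 cluster 4.56% (2.30 to 8.02) of 241 cells had at least 2 receptors with 2.16% expected, on 17 observations over the 10 pairs. In the Tiam1 cluster of CD4-like cells the share was 7.88% (5.06 to 11.6) of 292 cells with 4.36% expected, and in Regulatory-like cells 14.5% (10.1 to 19.9) of 214 cells with 12.8% expected. In Regulatory-like cells of the WT library 3 of 22 cells had at least 2. Among NKT-like and NK-like cells of the HFHC pool 1 of 424 and 2 of 456 had at least 2. In NK-like cells this stood beside 34 of 456 (7.46%) with at least 1 receptor, and 0.221% with at least 2 were expected.

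Other genes of the same pathways were read from lists for each role, beside the 8.11% of all genes that were higher and the 2.15% that were lower by 2-fold in CD8-like cells. Of 11 other inhibitory receptors, 8 had enough UMIs in CD8-like cells and 4 were at least 2-fold higher in the HFHC pool, with none lower. They were Cd200r1 with a log2 ratio of 2.86 (1.54 to 6.49), Entpd1, the ectonucleotidase CD39, with 2.16 (1.45 to 3.24), Klrc1 with 1.2 (0.71 to 1.81) and Cd5 with 1.06 (0.64 to 1.59). Of 8 costimulatory receptors 5 were measured and 0 passed 2-fold in either direction, a count that these shares would also give: Cd28 had a log2 ratio of 0.67 (0.39 to 0.99) and Slamf6, a receptor of progenitor-like exhausted cells, -0.49 (-0.80 to -0.13). Icos, itself a costimulatory receptor, was at 0.91 in the same cells.

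Among 16 further transcription factors of activation and exhaustion, 9 of the 14 measured were at least 2-fold higher in CD8-like cells of the HFHC pool and none lower, with a median log2 ratio of 1.16 against 0.10 over all genes. Bhlhe40 had a log2 ratio of 4.22 (3.24 to 6.10), Tox2, a paralogue of Tox, 3.68 (2.17 to 9.99), Maf 3.06 (2.61 to 3.64) and Prdm1, which encodes Blimp-1, 2.34 (1.57 to 3.54). Of the 10 effector genes measured, 9 were higher by that much, with a median of 2.22. Ccl3 had a log2 ratio of 4.73 (3.92 to 6.12), Ifng 4.21 (3.06 to 6.90), Ccl4 3.56 (3.12 to 4.14) and Ccl5 2.79 (2.73 to 2.86). The share of naive-like cells in the class also differed between the libraries, and its part in these counts was not tested. In the naive-like cluster the median log2 ratio was 0.42 over 6 other inhibitory receptors, 0.48 over 8 factors and 1.47 over 5 effector genes. In the Cx3cr1 cluster these medians were 0.16 over 5, 1.34 over 6 and 0.76 over 9 genes. Over all genes they were 0.01 and -0.04. The Adgrg1 cluster had too few WT library cells for a ratio. In NK-like cells the same effector list divided, with 4 of 10 higher and 1 lower, against 3.55% and 1.96% of all genes there. The 1 lower gene was Gzmb, at a log2 ratio of -1.5 (-1.58 to -1.41).

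The genes most like each of the 9 were sought by Pearson correlation of log2(CPM + 10) over 31 sums of a class or liver cell type in a library, among 8097 genes. These sums share libraries and depth, and the values are a description. Tox had the closest companion, Cst7, which encodes cystatin F of cytotoxic cells, at 0.926, followed by Cd27 at 0.910. Icos was closest to Camk4, a kinase of T cell receptor signalling, at 0.890, and Ctla4 to Tnfrsf4, which encodes OX40, at 0.874. Gzmk was closest to Coch at 0.862, Pdcd1 to Ubash3a at 0.861 and Sh2d1a at 0.860, Tigit to Reps1 at 0.807 and Havcr2 to Phf11a at 0.807. Nr4a2 and Lag3 had the weakest companions, Gm9844 at 0.745 and Runx2 at 0.733.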

How the data were processed

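Liver cells of mice were measured with BD Rhapsody in 2 libraries. The deposited counts are whole-number UMIs per cell and gene that the authors made with the BD Rhapsody WTA Analysis Pipeline 1.10.1 on GENCODE M19 (GRCm38), per the file headers. Before filtering there were 30734 cells with 53720863 UMIs in the WT library, and 21601 cells with 71981673 UMIs in the HFHC pool. The mapping of the WT library to mice without the HFHC diet rests on the other titles naming the HFHC diet.

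Cells with 200 to 4000 genes and at most 25% mitochondrial UMIs were kept, 23346 and 19625. Each library was normalized with sctransform 0.4.2, integrated by reciprocal PCA and clustered in Seurat 5.3.0 (4000 variable genes, 30 components, resolution 0.8, seed 42), without the 9 genes. T and NK clusters were clustered again in the same way and named by defining genes: at least 500 CPM of Ncr1, Foxp3, Trdc, Cd8a and Cd8b1 or Cd4, or 50 CPM of Zbtb16 with 500 CPM of Cxcr6. A cluster stayed unnamed where fewer than 3 markers were detected or its 10 leading genes held more markers of another type, as in 2 clusters that met the Zbtb16 rule. Naming thresholds were set after the clusters were seen. Doublets were called with Scrublet (scanpy 1.11.5) and kept in the main values. Ratios compare summed CPM on the log2 scale after adding 1 UMI, for genes that reach 100 UMIs in a class. The calculation was tested on simulated data.

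The 9 genes and the lists were chosen with earlier results of these data known. Named from the lists were up to 4 genes each with the largest ratios, and 3 genes most like each of the 9, of which some are given. Alternatives covered filters, resolution, integration, thinning depth, minimum UMIs and the definition of classes.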

Additional observations from a re-analysis of the deposited data

Results flagged for a closer look

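Cells left out of the classes also carried some of the 9 genes at a higher level in the HFHC pool, which drew attention because these cells enter none of the class comparisons above, though they count in the totals of T and NK cells. Icos went the other way, with a lower level in the HFHC pool over all these cells together. In the clusters without a clear class, led by Ly6c2, Cxcl10 and Ifit1, Ctla4 was at 35.9 CPM (23.9 to 51.9) in the WT library and 95.8 CPM (76.9 to 118) in the HFHC pool. Tox was at 23.1 CPM (13.7 to 36.5) and 93.6 CPM (75.0 to 115) there. In the clusters that hold genes of hepatocytes, neutrophils or endothelial cells beside T cell genes, Ctla4 was at 7.64 CPM (3.07 to 15.7) and 60.6 CPM (49.2 to 74.0), Tox at 41.5 CPM (29.3 to 56.9) and 138 CPM (121 to 158), and Gzmk at 1.09 CPM (0.0276 to 6.08) and 78.8 CPM (65.6 to 93.8). These clusters held 413 cells of the WT library and 344 of the HFHC pool, of which 268 and 173 were called doublets. Which T cells they contain was not tested.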

How the results depend on the processing

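The 13 gene and class pairs past 2-fold kept their direction under each alternative in which they had a value, and all with a value stayed past 2-fold but Icos in CD4-like cells, at 0.61 with classes from own marker UMIs. That alternative also moved Ctla4 in CD4-like cells from 2.75 to 3.48, Nr4a2 in NK-like cells from 4.29 to 3.55, Tigit and Tox in Regulatory-like cells from 0.92 and -0.45 to 1.57 and 0.40, and Icos in NKT-like cells from -0.01 to -0.64. Tox in NKT-like cells went from 0.16 to 0.90 at a resolution of 1.2. The count of pairs past 2-fold was 25 with a minimum of 20 UMIs, 29 higher and 1 lower with no minimum, and 8 on thinned counts. Without integration it was 1, since that clustering placed 3 WT library cells in the CD8-like and 0 in the CD4-like class, too few for a ratio, and no share or joint detection was computed for those of the WT library. Without the Adgrg1 cluster, an alternative chosen after seeing the data, it was 8. No share over all genes is given beside these counts, and nothing is read from them. The number of genes with the same highest class in both libraries was 5, and between 4 and 7 over the alternatives.

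The share of CD8-like cells of the HFHC pool with at least 2 receptors, 13.1%, was 5.45% at 500 UMIs per cell, 22.4% at 2000 UMIs and 28.6% without thinning. It was 19.2% with a mitochondrial limit of 10%, which left 577 of the 899 cells, and 1.74% without the Adgrg1 cluster. The median ratio of joint detection, 2.45, was 2.92 at 500 UMIs, 1.82 with the mitochondrial limit and 6.85 without the Adgrg1 cluster, where few observations remain. The cause was not tested. The WT library was the shallower one, and its CD8-like receptors rest on 1 to 8 UMIs each. Of its 311 CD8-like cells, 277 were in the naive-like cluster. The parts of depth and makeup in these counts were not tested. No paired analysis was possible because each diet has 1 library and the values come from no test.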

Other observations

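Several of the 9 genes were also found in liver cells other than T and NK cells. Havcr2 was highest in conventional dendritic cells, at 144 CPM (130 to 158) in the WT library and 131 CPM (119 to 144) in the HFHC pool. In monocytes and macrophages it was at 42.7 CPM (34.4 to 52.5) and 65.7 CPM (59.0 to 72.9), and in KCs at 9.50 CPM (8.06 to 11.1) and 28.0 CPM (23.0 to 33.9). In the HFHC pool the level in conventional dendritic cells was below that of the Adgrg1 cluster of CD8-like cells, 374 CPM. Lag3 was found in plasmacytoid dendritic cells, at 106 CPM (93.6 to 120) and 193 CPM (172 to 215), and at no more than 20.5 CPM in conventional dendritic cells. Icos transcripts were counted in KCs at 74.0 CPM (69.9 to 78.3) and 104 CPM (93.7 to 114), above the 11.8 and 20.9 CPM of endothelial cells. Nr4a2 was at 6.03 CPM (3.57 to 9.53) and 99.5 CPM (89.0 to 111) in conventional dendritic cells, where the summed immediate-early and heat shock genes were at 5231 and 12055 CPM; their part in that difference was not tested.

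Ligands of the receptors were spread over the liver. Lgals9 and Fgl1, ligands of TIM-3 and LAG-3, had their highest level in hepatocytes in both libraries, with Lgals9 at 1454 and 1525 CPM and Fgl1 at 61.1 CPM (53.3 to 69.8) and 67.9 CPM (63.7 to 72.2). Cd86, a ligand of Ctla4, was highest in KCs, at 225 CPM (218 to 233) and 262 CPM (246 to 279), and Icosl in B cells, at 255 CPM (234 to 277) and 262 CPM (244 to 283). Cd274, which encodes PD-L1, was highest in neutrophils in the HFHC pool, at 319 CPM (282 to 359), and in basophils in the WT library, at 74.8 CPM (35.9 to 138) on 10 UMIs. Within CD8-like cells 0 of 6 measured ligands passed 2-fold, which the 8.11% of all genes higher and 2.15% lower there would also give.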
